A study of Mus musculus with 2 samples.

Results

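The 9 genes of this list of myeloid C-type lectin receptors were followed in whole lungs of mice carrying Lewis lung carcinoma (LLC) tumours: Clec4d, Clec4e, Clec4n, Clec5a, Clec7a, Clec4a2, Clec4a3, Clec10a and Clec12a. The genes were listed by symbol, and every probe set annotated to them was taken. Of the 9, 8 had a probe set, of 18193 genes in all that could be read singly, and Clec12a was not analysed here. The 8 genes were read by 11 probe sets of their own and by 1 more that names both Clec4a2 and Clec4b1. The list was selected on log2 ratios seen on these same 2 arrays, so the members' ratios are given as a description.

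Both groups were C57BL/6 mice of 6 to 8 weeks that had received 500000 LLC cells in 200 µL into a tail vein, and whole lungs were taken on day 19. LLC is a carcinoma line of C57BL origin whose cells seed tumours in the lung. In the control group the cells carried an empty vector, and in the other group they overexpressed TDAG8, the proton-sensing receptor encoded by Gpr65. Neither the species of the TDAG8 sequence nor the number of cell clones is stated in the labels. Each group was a pool of RNA from 10 lungs on 1 Affymetrix array, which leaves the values without replicates, error or test. The labels name no genetic change in the host mice, and tumour, blood and lung cells all contributed RNA. Gpr65 itself went from 32.3 to 73.9 intensity units, 2.38-fold, with a log2 ratio of 0.81 under an offset and a bound of 0.29 under a floor at the 65th percentile, both short of 2-fold. Whether its mouse probe set reads the transfected sequence is unknown.

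C-type lectin receptors are surface proteins of macrophages, monocytes, neutrophils and dendritic cells that bind sugars and glycolipids of microbes and of damaged cells. The activating receptors signal through tyrosine motifs, either their own or those of the adaptors FcRγ (Fcer1g) and DAP12 (Tyrobp), to the kinase SYK and the CARD9 module, and so induce cytokines. The inhibitory receptors carry a motif that recruits phosphatases such as SHP-1 (Ptpn6).

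Each of the 11 probe sets of single members had a higher intensity in the TDAG8 array than in the vector control array. Signals were called dim under a floor at each array's 50th percentile, 26.3 in the control and 24.3 in the TDAG8 array. Of the 11 probe sets 8 lay above it on both arrays, 2 on the TDAG8 array only and 1 on neither. Ratios below are of TDAG8 over control on the log2 scale, after centring on the median gene, which moved them by 0.06 upwards, and folds are given after centring too. With the probe set of highest mean signal standing for each gene, 3 of the 8 genes, Clec4d, Clec4e and Clec4a2, were higher by 2-fold or more and 0 were lower by as much. Over all 11949 measured genes 5.41% were higher by 2-fold or more and 1.19% lower. All 8 genes had ratios above 0, as had 49.9% of all measured genes. The members were chosen on this contrast, so nothing is read from these shares. The median log2 ratio of the 8 genes was 0.94, against 0.00 over all measured genes. The ratios of 2875 genes with exactly 2 probe sets above the floor differed between those probe sets by a median of 0.22, with a 90th percentile of 0.62. Both probe sets were read on the same arrays, so this gives their disagreement and not the spread between arrays or pools.

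**Figure D1:**
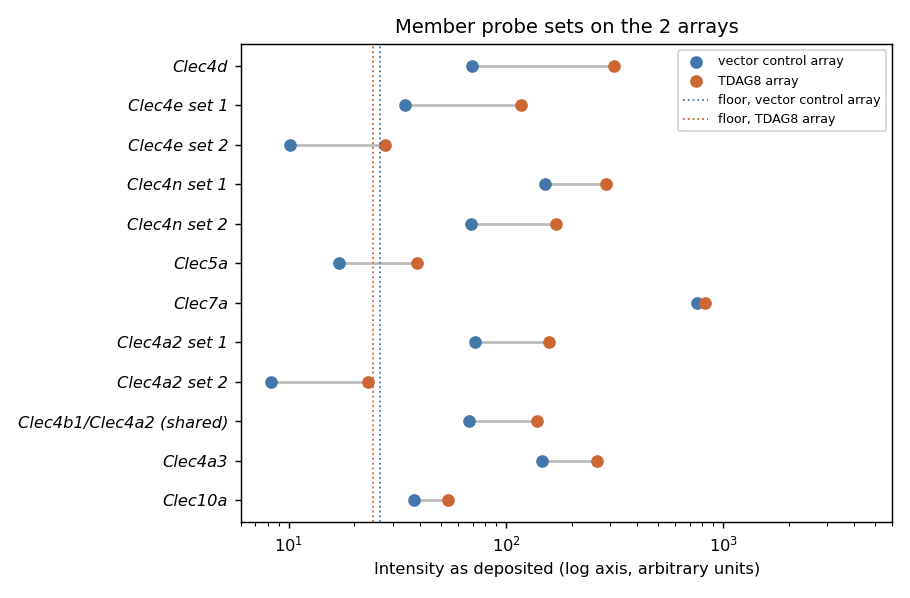
Deposited intensity (log axis) of every member probe set in the vector control array (blue) and the TDAG8 array (orange), with each array's floor as a dotted line. The orange point lies to the right of the blue one in each row, with the widest gap in Clec4d (69.9 to 313.5) and the narrowest in Clec7a (754.2 to 823.8).

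Clec4d and Clec4e, whose products signal with FcRγ, had the highest ratios of the list. Clec4d, the macrophage C-type lectin MCL that binds mycobacterial glycolipid, was read by probe set 1420804_s_at at 69.9 in the control and 313.5 in the TDAG8 array. It was 4.67-fold higher, a log2 ratio of 2.22. Only 0.435% of all measured genes had a ratio as high, and 0.754% of the 1194 genes of like level, the same 10% band of mean log2 signal, did. This probe set carries the suffix for sequence shared by more than 1 transcript, and the annotation names Clec4d alone for it.

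Clec4e encodes Mincle, a partner of MCL that binds the mycobacterial cord factor and SAP130, a nuclear protein freed by dying cells. Its probe set 1420330_at went from 34.3 to 117.6, 3.57-fold or 1.84 on the log2 scale. A ratio as high was found in 1.01% of all measured genes and in 2.76% of the 1195 genes in its 10% band of mean level. Its second probe set, 1420331_at, went from 10.1 to 27.8, below the floor in the control, and the bound was at least 1.10-fold. Both probe sets were higher in the TDAG8 array, and the control value of the first lay close to the floor. A floor at each array's 65th percentile turned the ratio into a lower bound of 0.96, and the mean over both probe sets was 0.99.

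Clec4n encodes Dectin-2, a receptor for fungal mannans. Its probe set 1419627_s_at went from 151.3 to 288.1, 1.98-fold, and 1425951_a_at from 69.1 to 170.0, 2.56-fold. These probe sets gave log2 ratios of 0.99 and 1.36, on either side of the 2-fold limit, and their mean over the gene was 1.18.

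The other activating receptors were Clec5a and Clec7a. Clec5a encodes MDL-1, which signals through DAP12, and its probe set 1421366_at went from 17.0, below the floor, to 38.9, at least 1.54-fold higher. Under a floor at the 30th percentile the control value was no longer raised, and the ratio was 1.27 on the log2 scale, past 2-fold. Clec7a encodes Dectin-1, the receptor for fungal β-glucan, which carries its own tyrosine motif. Its probe set 1420699_at went from 754.2 to 823.8, 1.14-fold or 0.19 on the log2 scale, the lowest ratio among the 8 genes. A ratio as high was found in 35.3% of all measured genes, so Clec7a lay inside the bulk of the distribution.

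The other members gave intermediate ratios. Clec4a2 encodes DCIR1, an inhibitory receptor of dendritic cells and macrophages. Its probe set 1422013_at went from 72.1 to 158.0, 2.28-fold or 1.19 on the log2 scale, while 1425406_at stayed below the floor on both arrays at 8.3 and 23.0. The probe set shared with Clec4b1, 1425407_s_at, went from 67.3 to 138.9, a log2 ratio of 1.10 that cannot be assigned to either gene. With an offset in place of the floor the Clec4a2 ratio was 0.96, short of 2-fold. Clec4a3, a relative of Clec4a2 in the same gene cluster, went from 146.1 to 261.5 on probe set 1429954_at, 1.86-fold. Clec10a encodes MGL1, a galactose-type lectin of macrophages and dendritic cells, and its probe set 1419605_at went from 37.5 to 53.7, 1.49-fold. Clec10a lay above the floor on both arrays but near it, and 21.2% of the 1195 genes in its 10% band of mean level had a ratio as high.

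**Figure D2:**
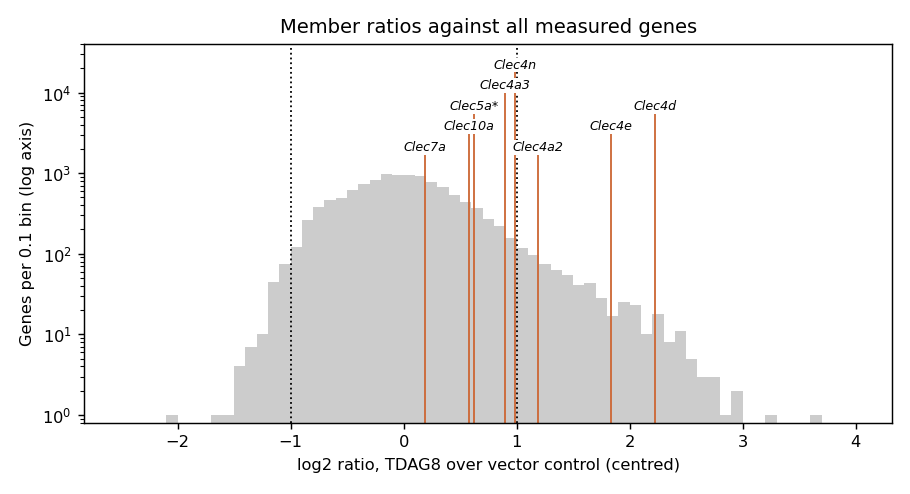
Number of measured genes per bin of log2 ratio (log axis) for all 11949 genes in grey, with an orange line at each member and dotted lines at 2-fold in either direction. Clec4e and Clec4d stand in the right tail at 1.84 and 2.22 and Clec7a near the centre at 0.19, and the asterisk marks Clec5a as a lower bound.

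The members are clustered in the genome. In RefSeq's annotation of GRCm38.p6, Clec4a3, Clec4a2, Clec4n, Clec4d and Clec4e lie in one run on chromosome 6, interleaved with Clec4a1, Clec4a4, Clec4b1 and Clec4b2. Of that run Clec4b1, a dendritic cell lectin, went from 30.1 to 46.6, a log2 ratio of 0.69, and Clec4a1, Clec4a4 and Clec4b2 were not analysed here. On the side of Clec4a1 the next protein-coding genes are Necap1 at 0.20, C3ar1 at 1.32, Foxj2 at -0.24 and Slc2a3 at 0.59. C3ar1, the receptor for the complement fragment C3a on myeloid cells, went from 79.8 to 191.0. So of the 5 measured genes other than members from Slc2a3 to Clec4e, 4 had ratios above 0 and 1 below, with a median of 0.59.

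Clec7a and Clec12a lie in a separate run on chromosome 6, between lectin-like genes of endothelium, platelets and lymphocytes. Of the 11 measured genes other than Clec7a from Clec2d to Klrc1, 8 had ratios below 0 and 3 above, with a median of -0.13. Clec1a, a lectin of endothelial and dendritic cells next to Clec7a, went from 478.9 to 297.9, a log2 ratio of -0.63. Clec1b, the platelet receptor CLEC-2, was at -0.41. The 3 genes above 0 were the natural killer cell receptor genes Klrk1 at 0.59, Klrc1 at 0.31 and Klrd1 at 0.04. Clec5a lies elsewhere on chromosome 6. The genes next to it, Olfr460 and Tas2r138, were not analysed here, and Prss37 and Mgam further out lay below the floor. Clec10a lies on chromosome 11 beside its close relative Mgl2, which went from 82.3 to 62.4, a log2 ratio of -0.34, opposite in sign to that of Clec10a.

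**Figure D3:**
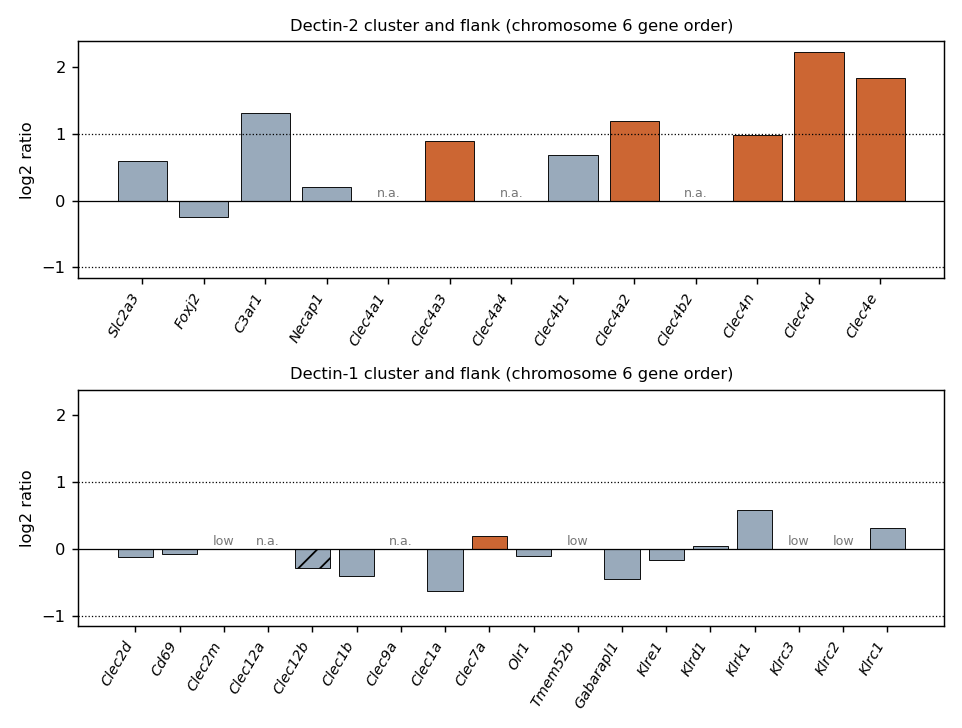
Log2 ratio of TDAG8 over vector control for protein-coding genes in RefSeq order along 2 stretches of chromosome 6, members in orange and other genes in grey-blue, with a hatched bar for a bound, "low" for genes below the floor on both arrays and "n.a." for genes not analysed. Of the grey-blue bars, 4 of 5 in the upper panel point upwards and 8 of 11 in the lower panel point downwards, and the orange bars are members selected on these ratios.

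The upstream sequences of Clec4d and Clec4e are shown because these 2 neighbouring genes, on opposite strands, had the highest ratios. They are the 250 bases before each RefSeq start site in assembly GRCm38.p6, Clec4d at chr6:123261857-123262106 on the plus strand and Clec4e at chr6:123289872-123290121 on the minus strand, and capitals mark matches of the motifs searched.
Clec4d: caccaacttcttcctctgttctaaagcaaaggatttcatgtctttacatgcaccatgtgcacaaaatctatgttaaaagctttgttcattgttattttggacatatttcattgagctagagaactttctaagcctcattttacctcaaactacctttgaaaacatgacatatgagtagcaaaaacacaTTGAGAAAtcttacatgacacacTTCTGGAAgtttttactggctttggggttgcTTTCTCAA
Clec4e: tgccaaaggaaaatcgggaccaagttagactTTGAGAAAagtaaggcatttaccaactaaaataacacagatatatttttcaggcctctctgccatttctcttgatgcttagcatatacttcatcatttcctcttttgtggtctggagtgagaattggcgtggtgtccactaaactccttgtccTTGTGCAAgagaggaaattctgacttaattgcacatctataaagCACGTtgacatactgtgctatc

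The motifs were searched on both strands: AGGAAGT for PU.1, TTGCNNAA and the looser TTNNGNAA for C/EBP factors. TGANTCA was searched for AP-1, ACGTG for the hypoxia-inducible factors and a loose pattern for NF-κB. That pattern fixed only the outer G and C bases and left the middle free, so a match need not be a consensus site. PU.1 and C/EBP are transcription factors of myeloid cells. All 3 capital runs of Clec4d matched TTNNGNAA, and 2.61% of the 32851 windows of this length in the table held as many matches. The first capital run of Clec4e matched TTNNGNAA, the second matched both C/EBP patterns and the third matched ACGTG. Over all windows a match was found in 36.8% for TTNNGNAA, 9.56% for TTGCNNAA and 16.6% for ACGTG. The shares were 6.75% for TGANTCA, 7.69% for AGGAAGT and 45.8% for the loose NF-κB pattern. The table held 9 windows of 7 members, with overlapping windows for Clec4a3 and for Clec7a. TTNNGNAA was found in 5 of the 9, TTGCNNAA in 2, TGANTCA in 1, ACGTG in 1 and the others in 0. In the windows of Clec4a3 and Clec7a no searched pattern was found. A match describes the letters only.

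The adaptor genes were higher as well. Fcer1g, which encodes FcRγ, the signalling partner of Clec4d, Clec4e and Clec4n, went from 429.5 to 866.4, 2.10-fold or 1.07 on the log2 scale, and was 0.98 after quantile normalization. Tyrobp, which encodes DAP12, the partner of Clec5a, went from 611.9 to 971.3, 1.65-fold. Syk, the kinase that both adaptors recruit, went from 100.4 to 114.2, a log2 ratio of 0.24. Of 18 measured genes of adaptors and kinases next to the receptor, 12 had ratios above 0 and 1, Fcer1g, was at least 2-fold different, with a median of 0.11. Lcp2, the adaptor SLP-76, was at 0.91, Plcg2, a phospholipase downstream of SYK, at 0.75 and Pik3r1, a regulatory subunit of PI3 kinase, at -0.84.

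Genes further down the pathway were summarised next. In the list of the CARD9 module and NF-κB 7 of 14 measured genes had ratios above 0 and 0 passed 2-fold either way, with a median of 0.01. Card9 itself was not among the measured genes. Within the list Bcl10 and Malt1, which join CARD9 in a signalling complex, were at 0.30 and 0.17. The inhibitor gene Nfkbie was at 0.82, Nfkb2 at 0.61, Rubcn at -0.59 and Nfkbia, an NF-κB target that restrains it, at -0.14. Of 9 phosphatase and ubiquitin ligase genes 7 were below 0, with a median of -0.16 and 0 at least 2-fold different. Ptpn6, the phosphatase recruited by inhibitory receptors, was the exception at 0.74, together with Ubash3b at 0.41, and Dusp1 was at -0.45. The median of the NF-κB list changed sign among the alternatives, between -0.05 and 0.06.

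Among inflammasome genes 5 of 6 were above 0, with a median of 0.48. Casp1, the protease that matures interleukin 1β, went from 68.8 to 200.6, 3.04-fold, Casp4 was at 0.77 and the adaptor Pycard at 0.61. Casp8 was at 0.36, and the sensor gene Nlrp3 went the other way, from 54.5 to 34.6, a log2 ratio of -0.60. Of 21 cytokines and other genes known to be induced through these receptors, 12 were measured, 10 of them above 0 and 4 past 2-fold upwards, with a median of 0.67. In 3 of the 12 the control signal was below the floor. Ccl2, a monocyte attractant, went from 125.9 to 848.8, 7.02-fold, Il1b from 67.5 to 183.0, 2.82-fold, and Ptgs2, the inducible prostaglandin synthase, from 89.8 to 219.4, 2.54-fold. Cxcl2, a neutrophil attractant, went from 7.7 to 73.1 and was at least 2.89-fold higher, a bound set by the floor that ranged on the log2 scale from 0.28 at the 65th percentile, short of 2-fold, to 3.15 at the 30th. Ccl22, a chemokine of dendritic cells, was at -0.83 and Egr2 at -0.25. The other 9 genes, among them Tnf, Il6, Il10, Il12b and Il23a, were under the floor on both. Many cell types of the lung express these genes, so the list does not read receptor signalling alone.

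Of 7 genes listed for proteins reported as ligands inside the body, 5 were measured and 4 of them were above 0, with a median of 0.29. Vim and Anxa1, for vimentin and annexin A1, which bind Dectin-1, were at 0.51 and 0.57. Lgals9, another Dectin-1 ligand, was at 0.29. Sap130 was at 0.21, but the Mincle ligand of that name is encoded by a different gene. The counts and median of this list thus include Sap130 without its being the gene of that ligand. The gene below 0 was Anxa5 at -0.03, and Anxa13 and Siglec1 lay below the floor on both arrays.

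Lectin genes outside the list gave medians near or below 0. Among other lectins of myeloid cells 6 of 9 measured genes were below 0, with a median of -0.16. The macrophage mannose receptor gene Mrc1 went from 412.2 to 353.2 and the dendritic cell lectin gene Cd209a from 70.2 to 50.7, whereas Ly75, the receptor DEC-205, went from 30.5 to 58.1, 1.98-fold. Cd209f, just below the floor in the control, went from 26.2 to 50.5, and Cd302 was at -0.16. Among lectins of natural killer cells and lymphocytes 6 of 11 were above 0, with a median of 0.04. Cd72, an inhibitory receptor of B cells and macrophages, was 2.32-fold higher, Klrk1 was at 0.59 and Fcer2a at -0.61. Among soluble, endothelial and other lectins 12 of 16 were below 0, with a median of -0.41. Clec14a, an endothelial lectin-like protein, was 2.10-fold lower, Bcan was at -0.76 and the surfactant protein gene Sftpa1 at -0.39. Vcan, a matrix proteoglycan that monocytes also make, was 2.69-fold higher.

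**Figure D4:**
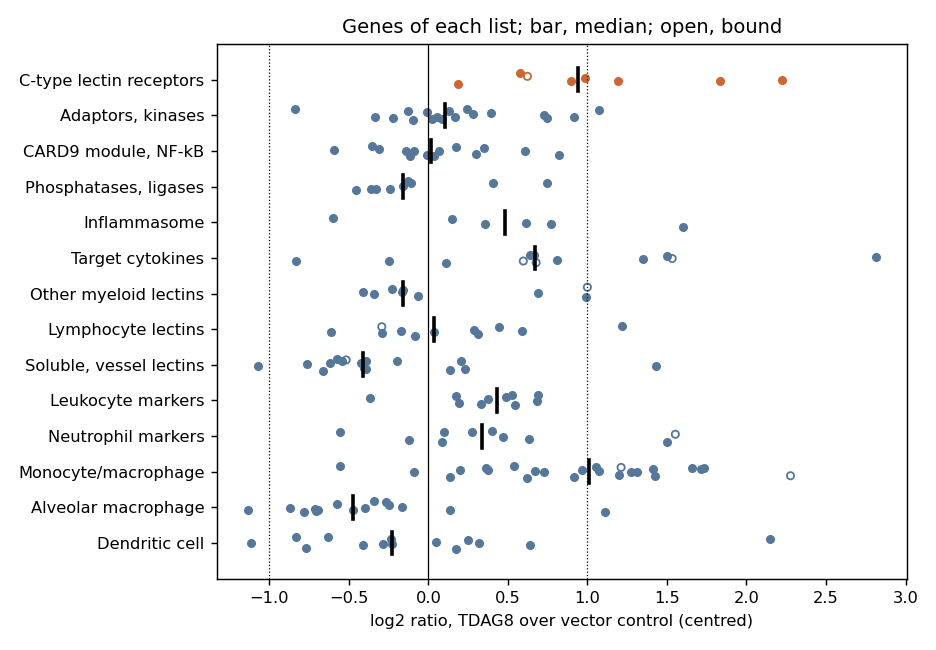
Log2 ratio of each measured gene in the receptor list (orange) and in lists of its pathway, of other lectins and of leukocyte types (blue), with a black bar at the median, open circles for bounds and dotted lines at 2-fold. The medians run from 1.01 for monocyte and macrophage markers and 0.94 for the receptors to -0.47 for alveolar macrophage markers.

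Markers of monocytes and macrophages, which carry these receptors, were mostly higher too. Of 24 measured ones 22 had ratios above 0 and 12 passed 2-fold upwards, with a median of 1.01, and their summed intensity went from 16456 to 21653. Msr1, a scavenger receptor, went from 25.4, below the floor, to 122.4, at least 4.85-fold higher after centring. Itgam was 3.32-fold and Fcgr1 3.28-fold higher. The markers below 0 were Mertk at -0.56 and the lysozyme gene Lyz2 at -0.09. Of 9 inflammatory monocyte markers 7 were above 0, with a median of 0.77, led by Vcan and by Ms4a4c at 1.36, with F10 at 0.94. Chil3 was at -0.71 and the haptoglobin gene Hp at -0.59, and the summed intensity of that list fell from 9767 to 8000. Of 10 general leukocyte markers 9 were above 0, with a median of 0.43 and sums of 6278 and 8000. Itgb2 was at 0.69, Cd48 at 0.68, Cd53 at 0.55, Cd52 at 0.49 and Ptprc, the gene of CD45, at 0.17. In RNA of whole lungs more cells of a type and more RNA per cell cannot be told apart.

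Neutrophils, which also carry Clec4d, Clec4e and Clec5a, had a smaller median. Of 10 measured neutrophil markers 8 had ratios above 0 and 2 passed 2-fold upwards, with a median of 0.34 and sums of 2518 and 2590.5. Padi4 was at least 2.93-fold higher, Il1b, which the cytokine list holds too, was 2.82-fold higher, and Csf3r was at 0.63. S100a8 was at 0.10, S100a9 at 0.28, Lcn2 at -0.12 and Ltf at -0.56. Other cell types express Il1b as well, so this list does not read neutrophils alone. Cxcr2, Mpo, Elane, Camp, Ngp and Stfa2l1 were under the floor on both. Alveolar macrophage markers went the other way, with 13 of 15 below 0, a median of -0.47 and sums of 9090.5 and 5942. Fabp1 was 2.19-fold lower, Siglecf was at -0.69, Chil3 at -0.71 and Krt19, also a keratin of epithelium, at -0.87, and Marco was 2.16-fold higher. Epithelial and endothelial cells also express some genes of this list, so it does not read alveolar macrophages alone. Of 14 dendritic cell markers 8 were below 0, with a median of -0.23 and sums of 7940 and 9111. Ccl17 was 2.16-fold lower, Ccl22 was at -0.83 and H2-Aa at 0.05. Fscn1, which mesenchymal and tumour cells also express, was 4.44-fold higher. It went from 327.1 to 1394.0, which is most of the rise in the sum. The defining dendritic cell genes Flt3, Xcr1 and Siglech were under the floor on both, and Zbtb46 went from 121.8 to 99.3, a log2 ratio of -0.24.

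The receptor ratios were set against these marker medians. Clec4d lay 1.79 above the median of the leukocyte list and 1.21 above that of the monocyte and macrophage list, and 1 of the 24 genes of the latter, Msr1, had a higher ratio, itself a bound. Clec4e lay 0.83 above the monocyte and macrophage median. Clec4a2 lay 0.18 above it, Clec4n 0.02 below it and Clec4a3 0.11 below it. Clec10a lay 0.43 below, and Clec7a 0.82 below it and also 0.25 below the leukocyte median. Clec5a lay 0.39 below the monocyte and macrophage median as a lower bound. The part of cell number in the ratios was not tested.

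Lists for other cell types and for dividing cells were also summarised. Proliferation markers, which dividing cells of any type can express, were higher in all 14 measured cases, by a median of 2.35. Their summed intensity went from 1365 to 6328. Bub1 was at 2.71, Cdk1 at 2.54, Cdca8 at 2.52 and Rrm2 at 2.22. Endothelial markers were below 0 in all 12 cases, with a median of -0.68 and sums of 11332 and 6959. Robo4 was at -0.91, Tek at -0.82, Kdr at -0.77 and Ptprb at -0.63. Alveolar epithelial markers were below 0 in all 13 cases, with a median of -0.49 and sums of 48372 and 34907, and airway epithelial markers in all 8, with a median of -0.65 and sums of 28951 and 21416. Fibroblast markers were below 0 in 7 of 10 cases, with a median of -0.38, while Lum was 2.20-fold higher. T and natural killer cell markers had a median of 0.11 over 11 genes, B and plasma cell markers -0.24 over 9 and red cell and platelet markers -0.34 over 7. Eosinophil, basophil and mast cell markers were measured in 3 cases, Kit at -0.95, Siglecf at -0.69 and Cma1 at a bound of -0.22. Their median was the value of Siglecf, a gene that the alveolar macrophage list holds too. The 9 others, among them Epx, Prg2, Cpa3 and Ms4a2, lay below the floor, so no direction is read for these cells. The part of tumour mass in the receptor ratios was not tested. Reference genes had a median of 0.20 over 10 genes, with Actb at -0.09, Eef1a1 at -0.02 and the glycolytic gene Pgk1 at 1.59.

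**Figure D5:**
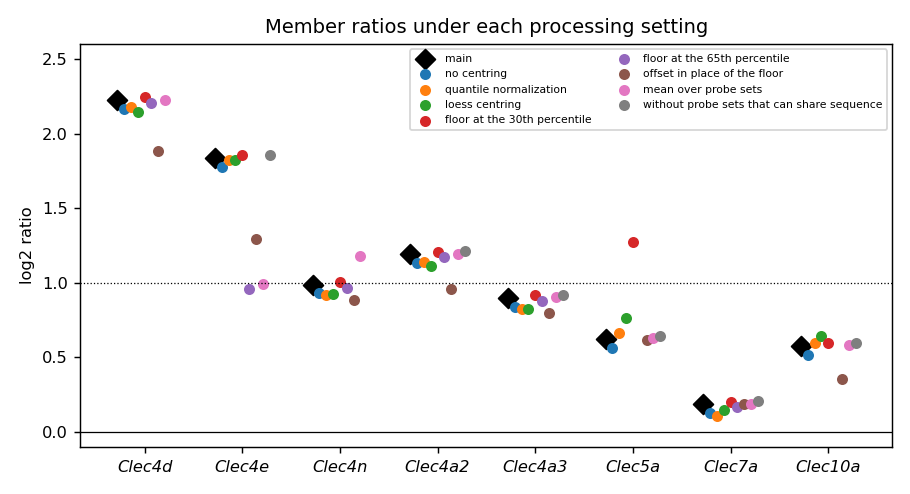
Log2 ratio of each member under the setting used in the text (black diamonds, named main) and under 8 other processing settings (coloured points), with a dotted line at 2-fold. Each point lies above 0, Clec4d spans 1.88 to 2.24, and Clec4e drops to 0.96 with the higher floor and 0.99 with the mean over its probe sets.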

How the data were processed

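Whole-lung RNA, 10 lungs pooled per group, was measured on 2 arrays. The values deposited by the authors are linear intensity values, 1 per probe set, scaled to a trimmed mean of 100 on each array. Per the labels' protocols biotin-labelled cRNA was made from 2 µg of RNA with priming from the poly(A) tail. The image software was not given in the sources used here. No detection calls accompanied the values. Of 45101 probe sets 64 controls were set aside, and 34945 of the rest had 1 gene symbol, 34741 of them matched to the RefSeq table of GRCm38.p6 for current symbols.

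Each gene was represented by its probe set of highest mean log2 intensity. Values under the floor, the 50th percentile of each array, were raised to it, so that ratios against them are bounds. Leaving out genes below it on both arrays kept 11949. Ratios were centred by -0.06 on the median of the 11044 genes above it on both. With 1 array per group no test was possible, and precision is limited by the number of arrays. The members, gene lists and motifs were chosen with earlier results of these data known, and 4 entries of the lists were removed as misnamed or doubled. Named were all members and, in pathway and lectin lists, the genes at least 2-fold different or else the 3 largest ratios. In the cell type lists where genes are named, these were the 3 largest ratios of either sign. The gene of highest signal in a list was added, with further genes of known role chosen after their values were seen. With 2 arrays no search for genes of like pattern was made. The ratio steps were tested on simulated data. Python 3.11.15 and pandas 2.3.3 were used, with 8 alternatives and 2 references added after the data were seen.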

Additional observations from a re-analysis of the deposited data

How the results depend on the processing

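The member ratios were above 0 under each of the 8 alternatives that measured the gene. In the main setting 3 members were at least 2-fold higher, between 2 and 5 under the alternatives, and 5 with the floor at the 30th percentile, where Clec4n (1.01) and Clec5a (1.27) passed as well. Relative to the median of the monocyte and macrophage list, a reference added after the data were seen, the count was 1, Clec4d. Relative to the leukocyte list it was 2, and no share over all genes was taken for either reference. Over all genes, those at least 2-fold higher numbered 646, or 5.41% of the measured genes. They numbered 876 (5.90%) with the floor at the 30th percentile, 419 (4.34%) at the 65th and 435 (3.64%) with an offset. Those at least 2-fold lower numbered 142, and 345 with the floor at the 30th percentile, 68 at the 65th and 31 with an offset. The floor at the 65th percentile left 6 members measured. The 6 members left without probe sets that can share sequence did not include Clec4d or Clec4n. No paired analysis was possible because each group had 1 array. Signals near the floor limit Clec4e, Clec5a, Clec10a, Gpr65 and Cxcl2.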

Other observations

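Of 18 measured genes for other pattern receptors of myeloid cells 17 had log2 ratios above 0 and 4 passed 2-fold upwards, with a median of 0.50. General leukocyte markers had a median of 0.43 and monocyte and macrophage markers one of 1.01, and their part in these ratios was not tested. In 3 of the 18 the control signal was below the floor. Tlr13, a sensor of bacterial ribosomal RNA, went from 51.0 to 115.6, 2.36-fold, and Pirb, an inhibitory immunoglobulin-like receptor, from 58.8 to 122.6, 2.17-fold. Trem2 and Tlr1 were at least 2.32-fold and 2.28-fold higher. Cd14, a co-receptor for lipopolysaccharide, was at 0.36, Tlr2 at 0.41 and Tlr4 at 0.52, and Nod1 was the gene below 0 at -0.48. Myeloid transcription factor genes showed no common direction, with 6 of 12 above 0 and a median of 0.00. Spi1, which encodes PU.1, went from 119.8 to 183.7, a log2 ratio of 0.68, and Cebpb was at 0.35, while Cebpa went from 638.1 to 362.3, a log2 ratio of -0.76, and Klf4 was at -0.58.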
